A study of Mus musculus with 2 samples.

Results

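The small heat shock protein genes Hspb1, Hspb2, Hspb3, Cryab (which encodes alphaB-crystallin), Hspb6, Hspb7 and Hspb8 were followed in long-read RNA sequencing of mouse heart. They were taken by gene name from the transcript models of each library, and the reads of a gene are the sum over all its models. All 7 had reads, among 15410 annotated genes with reads. The series holds 1 group, heart tissue of male B6CASTF1/J mice aged 18 to 20 months, F1 hybrids of C57BL/6J and CAST/EiJ. It has 2 libraries, each started from 2 µg of RNA, whose labels give different biological replicate numbers but 1 shared donor identifier. No treatment or second genotype is part of the design, so levels, transcript structures and the spread between these libraries are described. The p-values set a difference between the libraries against counting error only, that spread may be technical, and reads of the C57BL/6J and CAST/EiJ alleles were not separated.

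Small heat shock proteins are chaperones that work without ATP. They share an alpha-crystallin domain, assemble into oligomers and hold unfolding proteins in a soluble state until ATP-driven chaperones or autophagy take over. In heart muscle they bind desmin filaments, actin and titin, and Cryab is among the most abundant chaperones of the cardiomyocyte. Hspb1 (Hsp25 in the mouse), Cryab, Hspb6 and Hspb8 are made in many tissues, while Hspb2, Hspb3 and Hspb7 are mainly known from heart and skeletal muscle.

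To show what the 7 proteins have in common, a stretch of their coding sequence within the alpha-crystallin domain is printed first. It is the 60-base window in which the aligned members were most alike, read from the GENCODE M21 coding sequences. Capitals mark the 4 codons, of 20, that encode the same amino acid in all 7 members.
Cryab: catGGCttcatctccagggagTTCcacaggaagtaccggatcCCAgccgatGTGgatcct
Hspb1: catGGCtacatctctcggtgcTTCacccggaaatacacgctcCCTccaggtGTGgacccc
Hspb6: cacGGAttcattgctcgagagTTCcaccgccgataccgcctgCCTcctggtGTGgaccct
Hspb8: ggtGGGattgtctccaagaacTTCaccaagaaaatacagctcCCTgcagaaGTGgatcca
Hspb2: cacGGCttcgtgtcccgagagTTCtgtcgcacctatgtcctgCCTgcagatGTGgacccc
Hspb3: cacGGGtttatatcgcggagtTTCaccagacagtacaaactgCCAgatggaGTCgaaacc
Hspb7: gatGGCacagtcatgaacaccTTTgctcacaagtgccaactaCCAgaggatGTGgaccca
Over this window the mean identity of the encoded residues between pairs was 52.1%. Over the whole aligned proteins it was lower and ranged over the 21 pairs from 22.1% for Hspb3 and Hspb8 to 50% for Cryab and Hspb1, with a median of 35.2%. The reading frames encode 154 residues in Hspb3, 162 in Hspb6, 169 in Hspb7, 175 in Cryab, 182 in Hspb2, 196 in Hspb8 and 209 in Hspb1. The coding sequence lies in 3 exons in Hspb1, Cryab, Hspb6, Hspb7 and Hspb8, in 2 in Hspb2 and in 1 in Hspb3.

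The first question was how much of each member these hearts contained. Cryab and Hspb8 led, Hspb6, Hspb7 and Hspb1 followed at similar levels, Hspb2 was lower, and Hspb3 was lowest, with few reads. Levels are in CPM, reads per 1e6 mouse reads, and ranks are among the 15410 genes. Together the members held 3805 CPM in replicate 1 and 3819 CPM in replicate 2 (mean 3812 ± 9.83, SD, n = 2), which is 0.380% and 0.382% of mouse reads. The summed level was thus nearly equal in the libraries, although single members were not.

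Cryab, the chaperone of desmin and titin, occupies positions 50751325 to 50756636 of chromosome 9 (mm10, plus strand). It was measured at 1424 CPM in replicate 1 and at 1687 CPM in replicate 2, from 981 and 1694 reads. This was the highest level of the 7 and the 89th of all genes, with a mean of 1556 ± 186 CPM (SD, n = 2). Hspb8 (Hsp22), the partner of the co-chaperone Bag3 in the disposal of damaged sarcomere proteins, occupies positions 116408491 to 116422864 of chromosome 5 (minus strand). It reached 1029 CPM and 905 CPM from 709 and 909 reads (mean 967 ± 87.6, SD, n = 2), rank 153, below Cryab in each library.

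Hspb6 (Hsp20), a substrate of protein kinase A in heart and smooth muscle, occupies positions 30552178 to 30555443 of chromosome 7 (plus strand). It had 470 CPM and 430 CPM in replicates 1 and 2, from 324 and 432 reads, with a mean of 450 ± 28.3 CPM (SD, n = 2) and rank 302. Hspb1, an actin-regulating chaperone phosphorylated by the kinase Mapkapk2, occupies positions 135887919 to 135889563 of chromosome 5 (plus strand). Replicate 1 gave 405 CPM and replicate 2 gave 281 CPM, from 279 and 282 reads, with a mean of 343 ± 87.8 CPM (SD, n = 2) and rank 403. Hspb1 had the widest gap between libraries, relative to its level, of the 6 members with at least 50 reads in each.

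Hspb7 (cvHsp), a chaperone of cardiac and skeletal muscle that binds filamin C, occupies positions 141420779 to 141425311 of chromosome 4 (plus strand). Levels of 340 CPM and 362 CPM were measured from 234 and 363 reads, with a mean of 351 ± 15.5 CPM (SD, n = 2) and rank 390. The values of Hspb7 fell inside the range of Hspb1, so the order of these neighbours is not larger than their spread. Hspb2, which forms a complex with Hspb3 in muscle, occupies positions 50751078 to 50752354 of chromosome 9 (minus strand). It had 134 CPM and 142 CPM from 92 and 143 reads (mean 138 ± 6.28, SD, n = 2), rank 1089.

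Hspb3, a single-exon gene at positions 113662896 to 113663676 of chromosome 13 (minus strand), was read 2 times in replicate 1 and 11 times in replicate 2. These are 2.90 CPM and 11.0 CPM (mean 6.93 ± 5.69, SD, n = 2), rank 8230. A count of 0 would allow up to 4.36 CPM in replicate 1 and 2.99 CPM in replicate 2 (3 reads, counting error only), so the value in replicate 1 lies under that limit. The value in replicate 2 lies above its limit, and each rests on few reads.

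A long read stands for 1 cDNA, so the main order in CPM was not divided by length. As a second scale only, the order was also taken per kilobase of each member's top known transcript. That division does not correct for incomplete reads. On that scale Cryab stayed highest at 1644 ± 197 CPM per kb (SD, n = 2), followed by Hspb8 at 533 ± 48.2, Hspb1 at 380 ± 97.2, Hspb6 at 330 ± 20.8, Hspb2 at 179 ± 8.12, Hspb7 at 127 ± 5.58 and Hspb3 at 8.87 ± 7.29. Hspb7 moved from the fourth place in CPM to the sixth per kilobase, because its transcript of 2769 nt is the longest of the members. That transcript held 61.5% and 56.5% of Hspb7 reads in replicates 1 and 2, so its length does not describe all of them. Hspb1 and Hspb6 overlapped in CPM per kb between libraries (311 to 449 against 316 to 345), while no other neighbours in this order did. In the plot of levels by library, the members can be read on each scale.

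**Figure D1:**
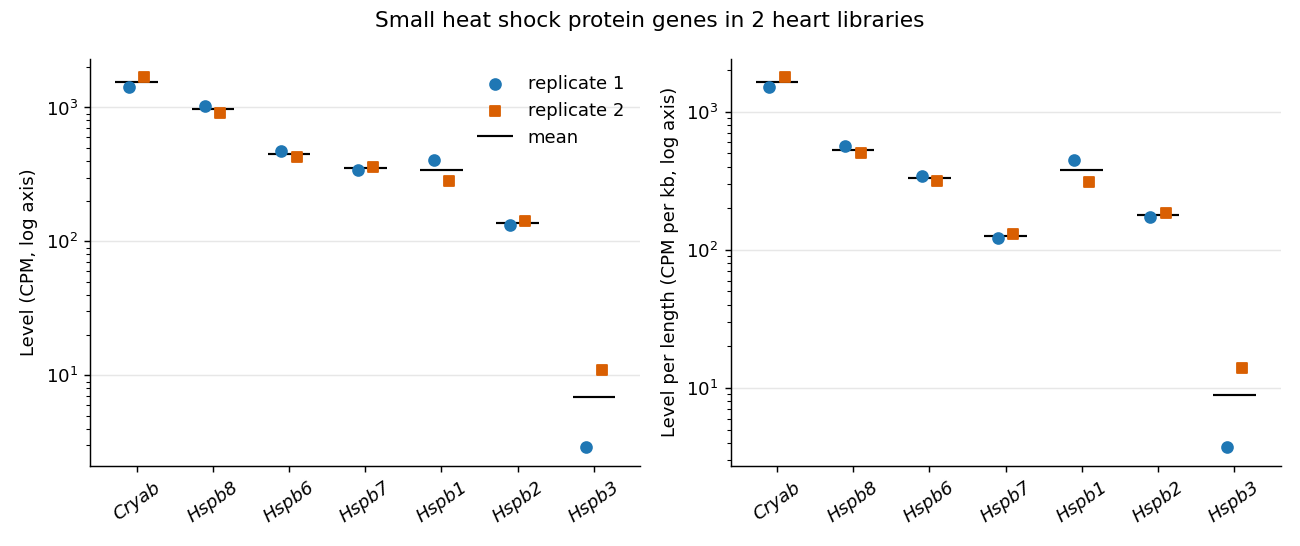
Level of each small heat shock protein gene in CPM (left) and CPM per kb of its top known transcript (right), on log axes, with circles for replicate 1, squares for replicate 2 and a bar for their mean. Cryab is highest in each panel, from 1424 to 1687 CPM, and Hspb3 is lowest, from 2.90 to 11.0 CPM.

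The labelled tissue was checked against marker genes. All 8 cardiomyocyte markers had reads, and they summed to 40895 and 42783 CPM in replicates 1 and 2 (2 called higher and 2 called lower in replicate 2). Of the skeletal muscle markers, Actn3, Myh1, Myh2, Myh4 and Mylpf had no reads. The lens markers Cryaa, Cryba1, Crygs and Mip had none either, so the alphaB-crystallin reads came without those of the lens crystallins. Other cell type lists moved between the libraries. Adipocyte markers summed to 244 and 37.8 CPM (2 of 2 tested called lower in replicate 2, Lep without reads). Atrial cardiomyocyte markers summed to 4252 and 3196 CPM (3 of 5 tested called lower). Fibroblast markers summed to 778 and 602 CPM (1 of 7 called lower), and smooth muscle and mural markers to 3243 and 2838 CPM (1 of 9). Des, listed below as a partner of Cryab too, held most of the latter sum (2683 and 2270 CPM) and was its only call. The median log2 ratio of the smooth muscle and mural list, replicate 2 over replicate 1, was -0.02, so its lower sum does not describe the whole list. Endothelial markers summed to 289 and 355 CPM and macrophage markers to 152 and 143 CPM, with none called in these 2 lists. Calls are those of the exact binomial test described below, which called 1.36% of all tested genes higher and 2.00% lower. With the edgeR negative binomial test, also described below, 2 adipocyte, 0 atrial and 0 fibroblast markers were called. In bulk tissue, fewer cells of a type and less RNA per cell cannot be told apart. Replicate 1 held 699529 reads and replicate 2 held 1019974, of which 688861 and 1003999 belonged to mouse models.

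The second question was which members differed between the libraries beyond counting error. Cryab was higher in replicate 2 and Hspb1 was lower, and the other 5 members did not pass the test. Thus 2 of 7 members were called, 1 in each direction. Of the 8836 genes tested, those with 10 or more reads summed over the libraries, 3.36% were called, 1.36% (120 genes) higher and 2.00% (177 genes) lower in replicate 2. With TMM scaling the same test called 168 higher and 124 lower, and the members' calls were the same. Taking replicate 2 over replicate 1, the median log2 ratio was 0.09 among the members and -0.06 among all tested genes. Ratios use CPM + 1, and their intervals use no such addition.

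The log2 ratio of Cryab was 0.24 (95% interval 0.13 to 0.36), with an adjusted p of 0.00130 by an exact binomial test (two-sided, Benjamini-Hochberg adjusted). For Hspb1 the log2 ratio was -0.53 (95% interval -0.77 to -0.28), with an adjusted p of 0.000979 by the same exact test. Hspb8 had a log2 ratio of -0.18 (95% interval -0.33 to -0.04) with p = 0.0114 and an adjusted p of 0.189 by the exact binomial test. Its direction was opposite to that of Cryab. Hspb6 gave -0.13 (-0.34 to 0.08), Hspb7 gave 0.09 (-0.15 to 0.33) and Hspb2 gave 0.09 (-0.30 to 0.49). Their intervals span 0, and their adjusted p ranged from 0.746 for Hspb6 to 0.967 for Hspb2 by the exact binomial test. Hspb3 had a ratio of 1.61 with an interval of -0.28 to 5.13 and an adjusted p of 0.516 by the exact binomial test, so a difference was not detectable at this depth.

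These calls rest on counting error. When the spread between the libraries was estimated over all genes (edgeR negative binomial test, coefficient of variation 14.0%), none of the 7 members was called and none had an unadjusted p under 0.05, while 25 genes were called in all. Among 29 synthetic spike-ins tested against their own totals, 4 were called, with log2 ratios from -0.23 to 0.25. Each of these 4 had at least 1522 reads in each library, more than Hspb1 had. The log2 ratio of Cryab (0.24, from 981 and 1694 reads) lay within the range of these 4 spike-ins, and that of Hspb1 (-0.53) lay outside it. The summed adipocyte, atrial and fibroblast marker levels moved in the same direction as Hspb1, and their part in its difference was not tested. Within the fibroblast list the median log2 ratio was -0.34, but Dpt (0.62) and Pdgfra (1.27) lay above 0, neither of them called.

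**Figure D2:**
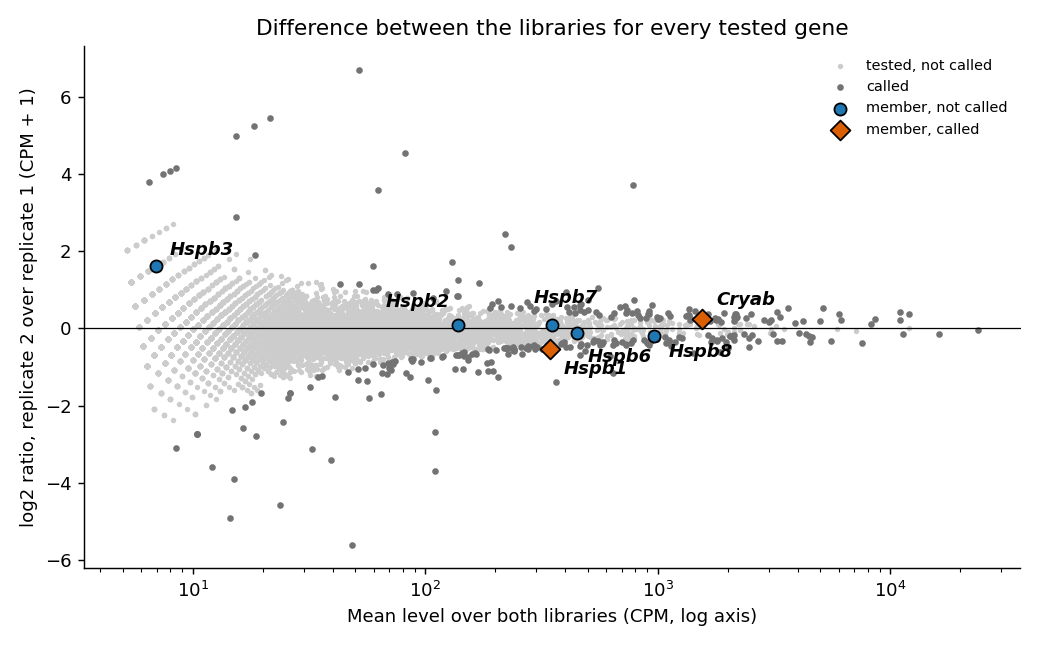
Log2 ratio of replicate 2 over replicate 1 (CPM + 1) against mean level in CPM (log axis) for the 8836 tested genes, with called genes in dark grey and the members as large symbols. Cryab (0.24) and Hspb1 (-0.53) are the called members, drawn as diamonds, and the other 5 are drawn as circles.

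Reads of Hspb1 can be given to a near-identical copy, so its copies were examined. Hsp25-ps1 is a processed pseudogene at positions 45078498 to 45079127 of chromosome 13 (minus strand, 1 exon of 630 nt), that is, a copy of spliced Hspb1 mRNA. Aligned over 627 nt, it matched the Hspb1 coding sequence at 99.4% and differed at 4 positions, with 0 stop codons in frame before the last. The 120-base stretch that holds 3 of the 4 differences (coding bases 490 to 609 of Hspb1, GENCODE M21) is shown. It compares reference sequences, and the bases of the reads were not examined. Capitals mark the bases that differ.
Hspb1: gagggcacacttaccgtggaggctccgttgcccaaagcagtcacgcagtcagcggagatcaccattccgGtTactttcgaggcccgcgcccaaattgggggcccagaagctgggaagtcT
Hsp25-ps1: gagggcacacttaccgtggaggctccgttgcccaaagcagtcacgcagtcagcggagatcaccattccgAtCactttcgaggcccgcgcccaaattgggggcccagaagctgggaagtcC
The pseudogene was given 68 reads in replicate 1 but 30 reads in replicate 2, and its log2 ratio was -1.69 with an adjusted p of 1.27e-06 by the exact binomial test. In replicate 2 alone, a new model of 128 nt with 44 reads was listed as intergenic at 45078371 to 45078498 on the same strand, sharing 1 end position with Hsp25-ps1. With that model added, the locus had 68 and 74 reads, a log2 ratio of -0.42 (95% interval -0.92 to 0.08) and p = 0.0876 by the exact binomial test. The size of the difference at the pseudogene therefore depended on whether that model was counted with it. Whether its 44 reads stem from Hsp25-ps1 was not tested. The Hspb1 ratio itself was -0.53 alone, -0.70 with its annotated copies pooled (347 and 312 reads, exact binomial p = 6.65e-10) and -0.51 with the new model pooled too (347 and 356 reads, exact binomial p = 3.88e-06). Each of these counts holds the 279 and 282 reads of Hspb1 itself, so their shared direction is not independent support. These p-values cover counting error only, and Hspb1 alone had an unadjusted p of 0.138 by the edgeR negative binomial test. The antisense gene Gm9817 over the pseudogene had 0 reads.

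The third question was which transcripts carried the reads. In 6 members 1 known transcript held most reads in each library, and Hspb7 was the member with the lowest share. Hspb1-201 held 98.2% of Hspb1 reads in each library. Cryab-201 held 95.4% and 95.9%, Hspb8-201 95.5% and 93.9%, Hspb2-201 91.3% and 91.6%, and Hspb6-201 90.1% and 90.3% in replicates 1 and 2. Hspb7-201 held 61.5% (95% interval 55.0 to 67.8) and 56.5% (51.2 to 61.6), the intervals here and below being Clopper-Pearson. All 13 reads of Hspb3 were on its known single-exon transcript. For comparison, the top transcript held a median of 76.9% and 75.6% of reads across the 3940 genes with 20 or more reads per library.

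No difference in these shares between the libraries passed the test. Of 6 members tested, 0 were called by Fisher's exact test with Benjamini-Hochberg adjustment, and 0.838% of the 3940 genes were. The smallest unadjusted p among the members was 0.184 for Hspb8 by Fisher's exact test, so none was under 0.05. Known transcripts held 92.9% and 92.2% of the reads of the 7 members together, and 74.8% and 72.4% of those of all annotated genes. New single-exon models held 5.38% and 6.44% of member reads, and 9.64% and 12.1% over all annotated genes. This difference in share was not tested.

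**Figure D3:**
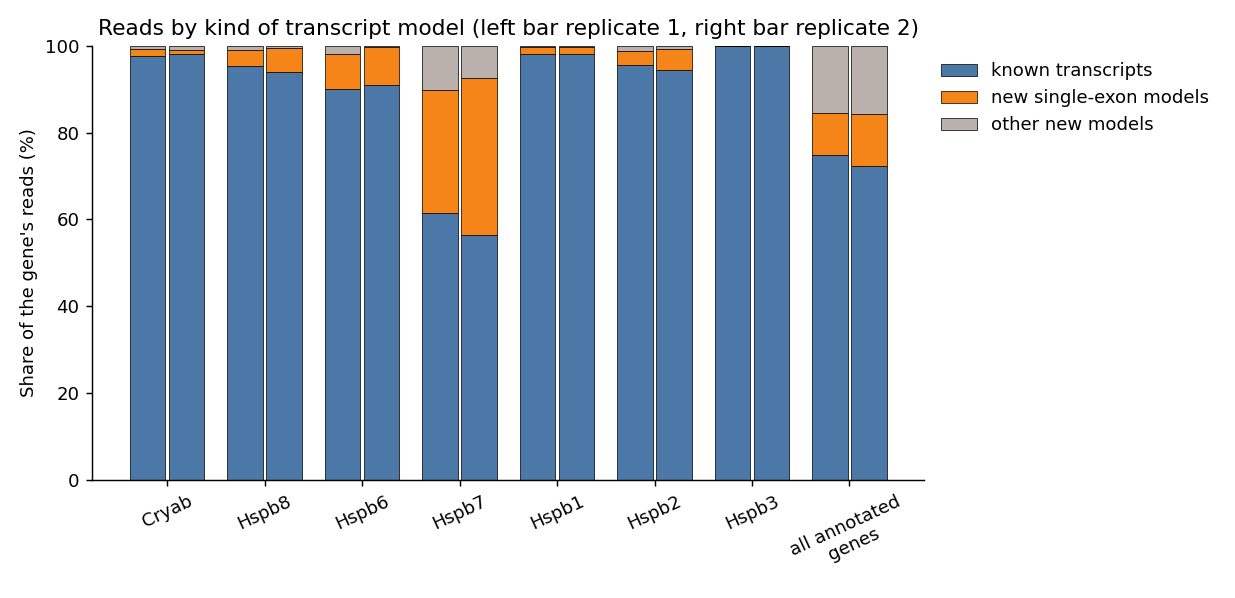
Share of each gene's reads (%) on known transcripts, new single-exon models and other new models, with the left bar for replicate 1 and the right bar for replicate 2. Hspb7 has the lowest known share of the members (61.5% and 56.5%), below that of all annotated genes (74.8% and 72.4%).

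Hspb7 departed from the other members in its models. Its only known transcript, Hspb7-201, has 3 exons, with a 5′ untranslated region of 1006 nt and a 3′ untranslated region of 1253 nt around a coding sequence of 510 nt. A new single-exon model held 66 reads in replicate 1 (28.2%, 95% interval 22.5 to 34.4) and 131 reads in replicate 2 (36.1%, 31.1 to 41.3). In replicate 1 it spanned the last exon alone (141423879 to 141425311, 1433 nt) and was named an incomplete splice match. In replicate 2 it reached back through the last intron (141422634 to 141425311, 2678 nt) and was named genomic. The intervals of the shares overlapped, while the name and the length of the model differed. Counting known transcripts alone lowered the mean level of Hspb7 from 351 to 207 CPM, the largest such change of the members. With incomplete and genomic models left out, the mean share of Hspb7-201 was 96.8% in place of 59.0%.

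The spliced new models of Hspb7 started far inside the annotated first exon. A model with 6 reads in replicate 1 began 920 nt after the annotated start, and its counterpart with 5 reads in replicate 2 began 921 nt after it. That leaves 86 and 85 nt before the start codon in place of the annotated 1006 nt. These models also used a first donor site 4 nt downstream of the annotated one, which is not a multiple of 3. A model holding the last intron alone had 18 and 22 reads. In replicate 2 it too began 921 nt inside the annotated start, while in replicate 1 it began at the second exon. Reads matched to Hspb7-201 carry the coordinates of the annotation in these files, so where they start was not measured.

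**Figure D4:**
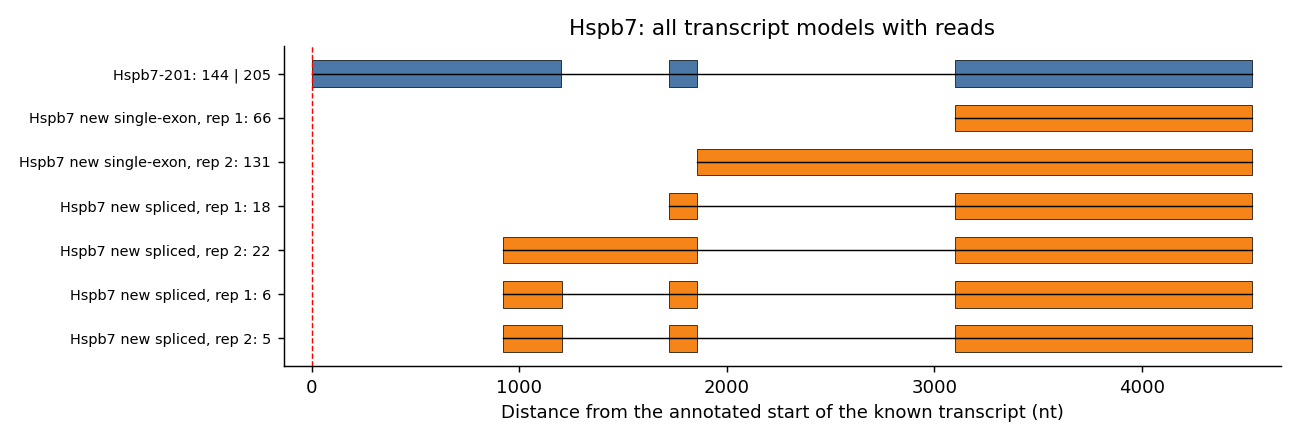
Exons of the Hspb7 models by distance from the annotated start of Hspb7-201 (nt), with the known transcript in blue (reads in replicate 1 and replicate 2) and new models in orange (reads in the library named). The single-exon model is longer in replicate 2 (131 reads) than in replicate 1 (66 reads), and the models with a new donor start 920 and 921 nt inside the known one.

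The class name of a single-exon model was unstable for other members too. It differed between the libraries for 4 of 6 members that had such a model in each (Hspb2, Hspb6, Hspb7 and Hspb8), and for 19.7% of 5589 matched single-exon models over all genes. The Hspb8 model, at the 3′ end of the gene, had 26 reads over 489 nt named genomic in replicate 1, and 50 reads over 1000 nt named an incomplete splice match in replicate 2. For Hspb6, 26 reads in replicate 1 were named genomic, and the 38 reads in replicate 2 were divided between a model of 971 nt and one of 2 nt, the latter with 4 reads. The Hspb2 models, at 50749420 to 50751078 in replicate 1 and 50751078 to 50751733 in replicate 2, had 3 and 7 reads. They shared 1 base only, so they were different models joined by the overlap rule, not 1 model with 2 names. Shares of the incomplete and genomic classes for these members are therefore not comparable between the libraries.

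Cryab and Hspb2 lie head to head on opposite strands. The annotated starts of Cryab-201 (50752907) and Hspb2-201 (50752293) are 614 nt apart. Cryab had 10.7 reads for each Hspb2 read in replicate 1 (95% interval 8.60 to 13.4) and 11.8 in replicate 2 (9.98 to 14.2). These ratios did not differ detectably (Fisher's exact test, two-sided, p = 0.481), nor did they with known transcripts alone (10.9 and 12.3, Fisher's exact test p = 0.426). The imbalance of the pair was thus of similar size in each library.

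Cryab was the member with the most models, 11 in replicate 1 and 15 in replicate 2. After Cryab-201, the known transcript Cryab-204, annotated as a retained intron, had 13 and 25 reads, and Cryab-205, which starts 113 nt inside Cryab-201, had 8 and 7. Longer Cryab models reach into the span of Hspb2 on the other strand. They had 1 read from 1 model in replicate 1 and 9 reads from 4 models in replicate 2, or 0.102% and 0.531% of Cryab reads. The farthest, Cryab-206, starts 1582 nt before Cryab-201 and had 1 read in each library. Few Cryab reads therefore overlapped Hspb2, and none of them are counted for Hspb2.

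**Figure D5:**
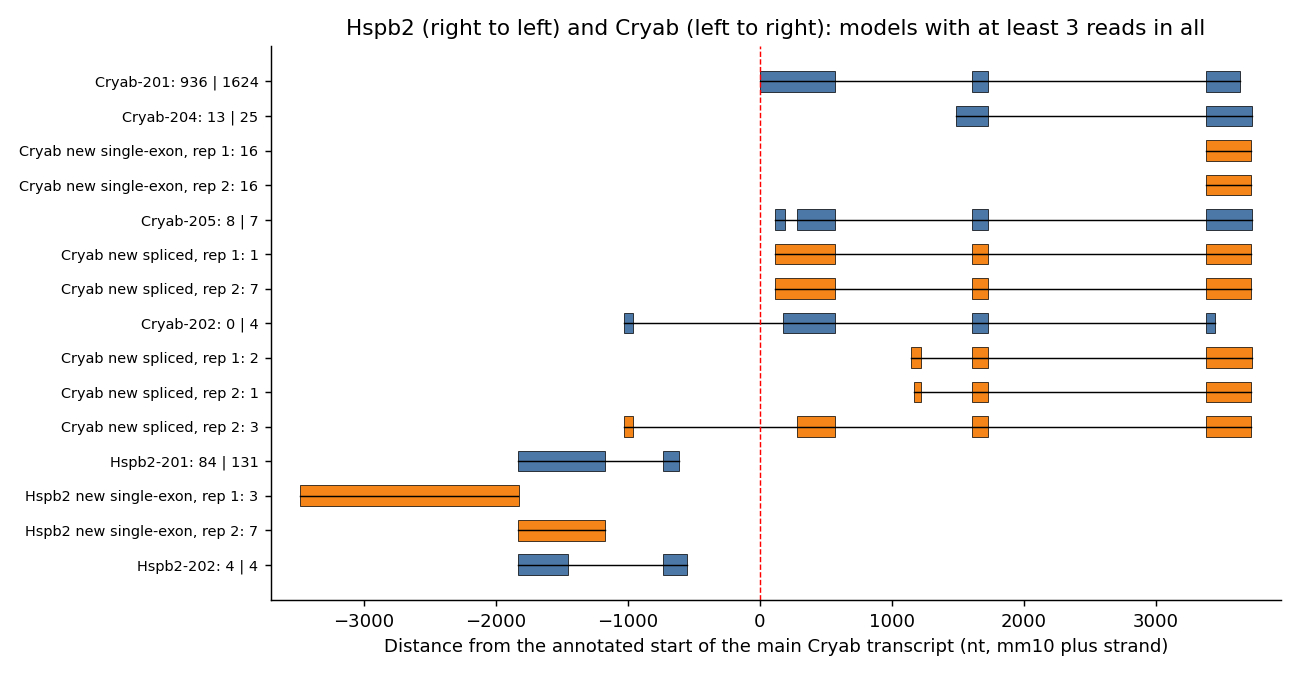
Exons of the Hspb2 and Cryab models with at least 3 reads in all, by distance from the annotated start of Cryab-201 (nt), with known transcripts in blue (reads in replicate 1 and replicate 2) and new models in orange (reads in the library named). Cryab-201 holds 936 and 1624 reads, Hspb2-201 holds 84 and 131, and the models that join the upstream exon to Cryab have 3 or 4 reads.

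New donor sites within 10 nt of annotated ones occurred in 4 members. In Cryab a donor 2 nt downstream of that of the second exon was used in a 3-exon model with 1 read in replicate 1 and 7 in replicate 2, and a donor 4 nt downstream had 1 read in replicate 1. Hspb8 had a donor shifted by 4 nt with 1 and 2 reads, and Hspb6 one shifted by 2 nt with 1 read in replicate 1. With the Hspb7 donor above, all these shifts are of 2 or 4 nt and none is a multiple of 3. They held at most 2.56% of a member's reads in a library, the share at Hspb7 in replicate 1. The low counts do not allow a comparison between libraries.

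Little other transcription was listed at the member loci. New antisense models had 0 reads in replicate 1 and 4 in replicate 2, at Cryab (1 read), Hspb7 (1 read) and Hspb8 (2 reads). The known transcript of Lin37, which runs towards Hspb6 from the other side, overlapped its 3′ end by 3 nt and had 3 and 9 reads. Proser3 overlapped the outer start of Hspb6 with 1 read in replicate 2. These counts are small beside those of the members.

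The promoters were searched for heat shock elements, the sites bound by heat shock factors, which are known to drive several members. RefSeq windows (GRCm38.p6) from 250 bases before to 50 after a start were held for 5 members in 6 windows, those of Hspb1, Hspb3, Hspb6 (2 windows), Hspb7 and Hspb8. Entries for Cryab and Hspb2 were missing. The letters GAANNTTC and TTCNNGAA (2 units) were looked for on both strands, where they can overlap each other. Capitals mark them here for the matches upstream of a start, each read in the direction of the gene, at chr5:135887772-135887859 for Hspb1, chr7:30553151-30553218 for Hspb6 and chr13:113663863-113663926 for Hspb3 (minus strand).
Hspb1 promoter: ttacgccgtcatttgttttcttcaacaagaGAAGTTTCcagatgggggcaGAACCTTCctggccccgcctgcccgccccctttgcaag
Hspb6 promoter: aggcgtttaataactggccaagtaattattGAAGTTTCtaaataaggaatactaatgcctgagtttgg
Hspb3 promoter: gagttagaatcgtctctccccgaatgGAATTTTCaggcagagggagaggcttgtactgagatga
Hspb1 had 2 matches, beginning 117 and 97 bases before the start. Hspb6 had 1 at 120 bases and Hspb3 1 at 224 bases before the start, and Hspb8 had 1 just after it. A match was present in 4 of the 6 windows and in 15.1% of 32851 windows over all genes, and 1.96% of all windows held 2 or more as Hspb1 did. With 3 units required, 0 of 6 member windows and 0.603% of all windows matched. The TATAAA letters were found 29 bases before the start in the second Hspb6 window and 11 bases before it in Hspb3, and in 13.6% of all windows. Both Hspb6 distances were counted from the RefSeq start at 30553301. The annotated start of Hspb6-201, which held most Hspb6 reads, lies upstream of it at 30553268. The Hspb6 match at 29 bases therefore fell inside Hspb6-201. The match at 120 bases lay upstream of that transcript too, but nearer to its start. A match describes the letters and not a bound site, and the called members Cryab and Hspb1 cannot be compared on it.

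The genes that work with the small heat shock proteins were read from fixed lists. Of 50 tested genes on these lists together, the exact binomial test called 0 higher and 14 lower in replicate 2. Of all tested genes, it called 1.36% higher and 2.00% lower. With the edgeR negative binomial test 2 of the 14 were called, Hspa1a and Hspa1b. Their median log2 ratio was -0.23, and that of all tested genes -0.06. Of the members, 4 lay above 0 and 3 below, but only Cryab (above) and Hspb1 (below) were called. The signs of the other members are uncertain, so a contrast with the lists was not shown. No p is given for the lists, since they were chosen with results of these libraries known.

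Other genes of the family were scarce. Cryaa, which encodes alphaA-crystallin of the lens, Hspb9 and Odf1 had no reads. Hspb11, a ciliary transport protein named with the family, had 8.71 and 18.9 CPM and was not called (adjusted p = 0.549, exact binomial test). Cryab, Hspb8, Hspb6, Hspb7, Hspb1 and Hspb2 were thus each above every other gene of the family list.

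Partners of Hspb8 in chaperone-assisted autophagy were well represented. Bag3, the scaffold that joins Hspb8 to Hsp70, had 354 and 301 CPM with a log2 ratio of -0.24 and was not called (adjusted p = 0.441, exact binomial test). Hspa8, the constitutive Hsp70, had 2234 and 1464 CPM and a log2 ratio of -0.61. It was the 1 of 9 listed genes called lower in replicate 2 (adjusted p = 5.60e-28, exact binomial test, against 2.00% of tested genes). It was not called with the edgeR negative binomial test (adjusted p = 1). Map1lc3b, the autophagosome protein LC3B, had 560 and 542 CPM. Hspb8 and Bag3 each had lower values in replicate 2, and neither passed the test.

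Of the heat shock factors and regulators, 4 were tested and 0 were called by the exact binomial test, with 2 at an unadjusted p under 0.05 and 0 called by the edgeR negative binomial test. Hsf1, the main heat shock transcription factor, had 72.6 and 49.8 CPM, and Hsbp1, its binding protein, 186 and 240 CPM. On the list of other chaperones taken as heat shock factor targets, 17 genes were tested, with a median log2 ratio of -0.34. Whether heat shock factors control each of them in these hearts was not tested. The exact binomial test called 0 of the 17 higher and 8 lower in replicate 2, against 1.36% and 2.00% of all tested genes. The 8 were Hspa1b (-3.40), Hspa1a (-3.12), Hsph1 (-1.16), Dnaja1 (-1.12), Hsp90aa1 (-1.07), Hsp90ab1 (-0.65), Hspd1 (-0.34) and Hspa9 (-0.30), log2 ratios in each case. Hspa1a and Hspa1b, the inducible Hsp70 genes, went from 59.5 and 72.6 CPM to 5.98 CPM each, and are near-identical copies whose separate counts are uncertain. They were the 2 of these 8 that were also called with the edgeR negative binomial test. Hspb1 moved in the direction of these chaperones and Cryab in the opposite one. Hspa5, the chaperone of the endoplasmic reticulum, was not called at 1116 and 1024 CPM.

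Of 7 tested kinases that phosphorylate small heat shock proteins, 1 was called lower and 0 higher in replicate 2. Over all tested genes, 2.00% were called lower and 1.36% higher. The kinase called was Mapkapk2, which acts on Hspb1 and Cryab. It had 470 and 339 CPM and a log2 ratio of -0.47 (adjusted p = 0.00148, exact binomial test). Prkaca, the catalytic subunit of protein kinase A that phosphorylates Hspb6, had 621 and 505 CPM, and Mapk14 (p38 alpha), which activates Mapkapk2, had 63.9 and 55.8 CPM. Neither of the latter was called, and Mapkapk2 was not called with the edgeR negative binomial test.

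Of 13 tested cytoskeletal and sarcomeric binding partners, 4 were called lower in replicate 2 and 0 higher by the exact binomial test. Over all tested genes, 2.00% were called lower and 1.36% higher. Desmin (Des), the filament protein that Cryab protects, had 2683 and 2270 CPM and a log2 ratio of -0.24 (adjusted p = 1.01e-05, exact binomial test). Actn2 (alpha-actinin of the Z-disc) had a ratio of -0.19, Actc1 (cardiac actin) -0.15 and Tubb5 (a beta-tubulin) -0.87. Cryab itself was higher in replicate 2, the opposite direction. None of these 4 was called with the edgeR negative binomial test.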

How the data were processed

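Long-read RNA libraries of 2 heart samples of 1 group were analysed. The authors deposited whole-number read counts per transcript model, not normalized, with an annotation of each library's models in mm10. Per the deposited text descriptions, known models are those of GENCODE M21, and the annotation names TALON as the source of new ones. The aligner, its version and the read filters: not given in the sources used here. SIRV spike-ins, named in the labels, were not used here.

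New spliced models were matched between libraries by intron chain and new single-exon models by an overlap of at least 1 base on a strand. CPM was computed per 1e6 mouse reads, ERCC spike-ins left out. The gene test was a two-sided exact binomial test of replicate 2 reads given the sum, with the expected share taken from the mouse reads, for genes with 10 or more reads summed over the libraries. Top transcripts (at least 20 reads per library) were compared by Fisher's exact test. Benjamini-Hochberg adjustment ran over all genes tested, and the threshold was 0.05. The summed chi-square between the libraries was 2.58 per gene. Alternatives used edgeR, DESeq2, other minimums, other pseudocounts, known transcripts only and thinning. The tests were also run on simulated counts that held counting error only. Such counts cannot show how the tests behave under the wider spread between these libraries. Copies were found with blastn 2.17.0 (90% identity over 50% of the shorter sequence) and coding sequences, translated, were aligned with mafft 7.526. Python 3.11.15, scipy 1.17.1 and pandas 2.3.3 were used. Protein features were limited to lengths and identities.

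The members and lists were chosen with earlier results of these data known. Named are all members, of each list the 3 genes with the highest mean CPM, every called gene and genes without reads, genes overlapping a member, and copies of Hspb1. An item that the rule names is not reported here. For marker lists mainly sums and genes without reads are given. Des, Dpt and Pdgfra are named in addition, where a sum did not describe its whole list. Intervals and floors cover counting error only.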

Additional observations from a re-analysis of the deposited data

How the results depend on the processing

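The summed mean level of the members was 3812 CPM, 3529 CPM with known transcripts only and 3753 CPM with spike-ins in the denominator. Without replicate 1 or replicate 2 it was 3805 to 3819 CPM. The call of Cryab held under 7 of 8 alternatives (log2 ratio 0.24 to 0.31, adjusted p up to 1) and so did that of Hspb1 (-0.55 to -0.47, adjusted p up to 1). These 7 kept a test against counting error only, so they do not show that the calls withstand a wider spread. Among them, the other pseudocount cannot change the p-value. The exception was the edgeR negative binomial test, under which 0 of 7 members and 25 genes in all were called, against 2 members and 297 genes. Its wider spread was estimated from these same 2 libraries. The sign of Hspb7 was not stable (-0.03 to 0.15), and it was called under none of 8 alternatives. Member promoters with a heat shock element went from 4 to 0 when 3 units were required, a stricter match by construction. No member's top transcript share was called under any alternative run. The ratio pooled over Hspb1 and its copies stayed below 0 in each way of pooling, of which the one with the new model was chosen after seeing the data. Every pool contains the reads of Hspb1, so the pools are not independent of each other. Depth limits Hspb3 (2 and 11 reads) and the new spliced models, most of which had under 10 reads. No paired analysis was possible because the series has 1 group.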
